A study of Phlebiopsis gigantea with 8 samples.

Results

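Lytic polysaccharide monooxygenases (LPMOs) and cellobiose dehydrogenase (CDH) form the oxidative part of the cellulose-degrading system of white-rot fungi, and the transcripts of 6 LPMO gene models and of the CDH gene model of *Phlebiopsis gigantea* are described here. The 7 models were picked by protein number from the 11892 gene models of the deposited table, of which 11891 have values, with their transcript levels already known. Their levels and fold changes are therefore given as a description, without a test. The table names 6 of them GH61, the former name of the LPMO family, and the remaining one CDH. Its domain columns name a GH61 domain or a fungal cellulose-binding region for 5 of the 6 LPMO models and give no domain for Phlgi1_125213.

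RNA came from day 5 cultures of the fungus in 250 ml of basal salts. Ground loblolly pine wood was the carbon source in 6 cultures. In 3 of them (NELP) the wood was only wetted with acetone and dried, so that it kept its resin acids, fats and other extractives. In the other 3 (ELP) the wood had first been stripped of extractives in hot acetone. Glucose (Glc) was the carbon source in the remaining 2 cultures. All cultures were of a single strain, grown from 1 basidiospore, so that the spread between libraries is that between cultures of the strain. Values are RPKM, reads scaled to the length of the gene and to the reads of the library, so that a level can be compared between genes. In RNA from a whole mycelium, fewer cells with a transcript and less of it per cell cannot be told apart.

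The libraries differed in depth and in spread. The spacing of the low RPKM values gave 10.2, 15.0 and 18.2 M reads for NELP 1 to NELP 3, 5.94, 7.19 and 6.96 M reads for ELP 1 to ELP 3, and 7.87 and 14.0 M reads for Glc 1 and Glc 2. Every NELP library was deeper than every ELP library. The median SD per gene in log2 units was 0.19 among the NELP libraries, 0.22 among the ELP libraries and 0.51 between the Glc libraries, which resembled each other least, so that p-values against Glc in a fit with 1 shared spread may be too small. They measure only the spread between these libraries. The median of all 10999 genes tested was also higher on wood than on glucose (log2 fold change 0.54 for NELP and 0.60 for ELP), and rescaling each library by its median ratio to the others brought these medians to -0.03 in both.

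LPMOs are secreted copper enzymes that cut cellulose chains by oxidation at the crystalline surface, which opens the chains to hydrolases. They need an electron donor and use oxygen or hydrogen peroxide as co-substrate. CDH, a secreted enzyme with a heme and a flavin domain, oxidizes the cellobiose that cellulases release and can pass the electrons to LPMOs. Some LPMOs carry a family 1 carbohydrate-binding module (CBM1), a small domain that binds crystalline cellulose. Among the 6 LPMO models, the study's annotation gives a CBM1 to Phlgi1_18264 and Phlgi1_227560. It describes Phlgi1_125213 and Phlgi1_227588 as truncated models, so that their levels may miss reads from the rest of the gene.

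CDH (Phlgi1_99876) had 645, 618 and 546 RPKM in the NELP libraries, 453, 338 and 229 RPKM in the ELP libraries, and 9.84 and 14.5 RPKM in the Glc libraries. The 3 media did not overlap, and the lowest wood library stood 15.8-fold above the higher Glc library. The log2 fold change on the log2(RPKM + 0.5) scale was 5.60 (SE 0.32) in NELP against Glc, 4.72 (SE 0.32) in ELP against Glc and 0.88 (SE 0.28) in NELP against ELP. With a mean of 603 ± 51.1 RPKM (SD, n = 3) it was the 145th most abundant transcript in NELP. At 340 ± 112 RPKM (SD, n = 3) it ranked 318th in ELP, and at 12.2 ± 3.30 RPKM (SD, n = 2) it ranked 6669th in Glc. Both wood comparisons use the same Glc libraries, here and for every gene below.

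**Figure D1:**
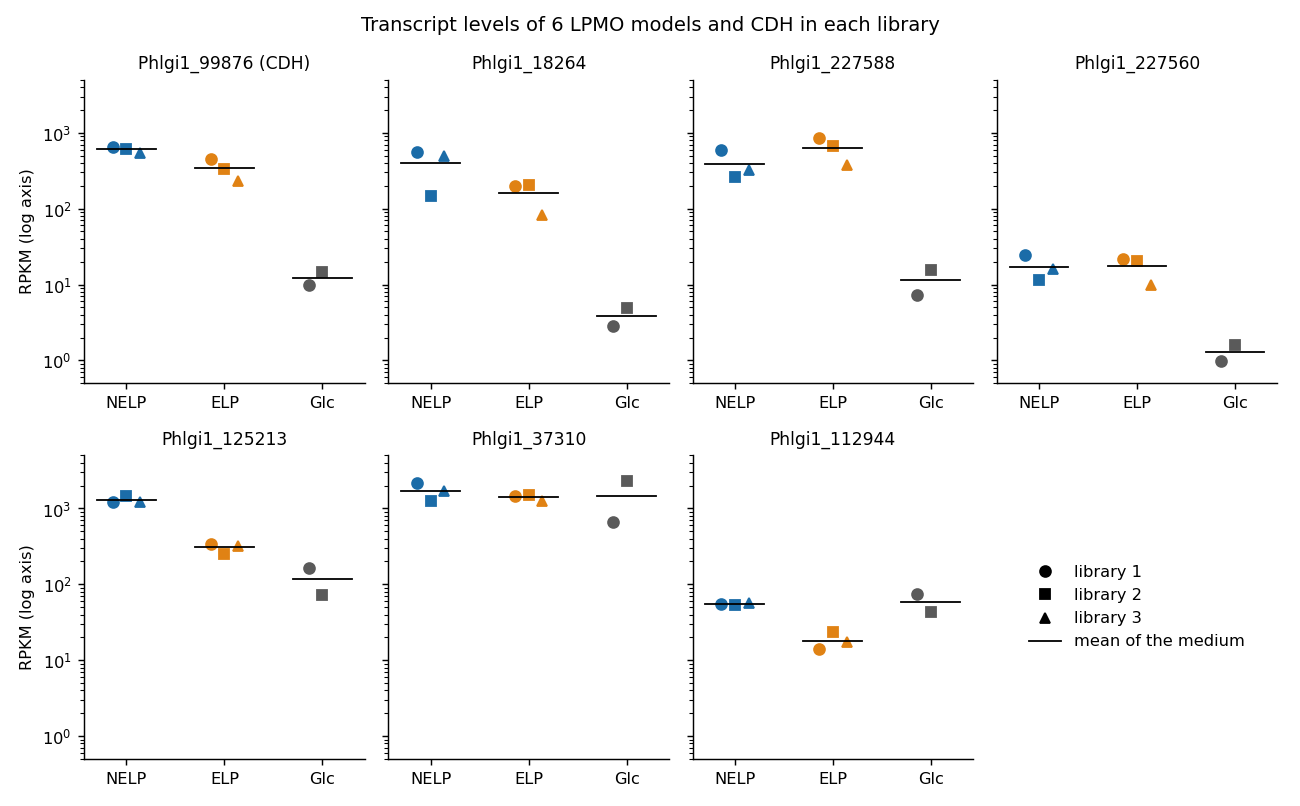
RPKM of CDH and the 6 LPMO models in each library, on a log axis, with NELP, ELP and Glc from left to right. Each point is 1 library, its shape gives the library number, and the line is the mean of the medium. CDH, Phlgi1_18264, Phlgi1_227588 and Phlgi1_227560 stand above Glc in all 6 wood libraries, Phlgi1_125213 is highest in NELP, Phlgi1_37310 overlaps between all media and Phlgi1_112944 is lowest in ELP.

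Of the 2 LPMO models with a CBM1, Phlgi1_18264 had 561, 148 and 489 RPKM in NELP, 196, 207 and 82.9 RPKM in ELP, and 2.83 and 4.83 RPKM in Glc. All wood libraries were thus at least 17.2-fold above both Glc libraries, while the NELP and ELP libraries overlapped through NELP 2. In NELP against Glc its log2 fold change of 6.35 (SE 0.64) was the largest of the 15 LPMO models. It was 5.16 (SE 0.64) in ELP against Glc and 1.19 (SE 0.57) in NELP against ELP. The last value was 1.80 without NELP 2 and 0.77 without ELP 3. The low Glc values came from few reads, at most 30.3 and 92.2 if the whole span of the gene was counted.

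Phlgi1_227560, the other model with a CBM1, had 24.4, 11.4 and 15.8 RPKM in NELP, 21.9, 20.5 and 9.84 RPKM in ELP, and 0.980 and 1.59 RPKM in Glc. Its log2 fold changes were 3.27 (SE 0.43) in NELP against Glc and 3.27 (SE 0.43) in ELP against Glc, and -0.004 (SE 0.39) in NELP against ELP. It was thus as far above Glc on either wood, at a level far below that of Phlgi1_18264. For this model the values gave whole reads at a length of 1167 nt, namely 290, 200 and 336 reads in NELP, 152, 172 and 80 in ELP, against 9 and 26 in Glc. The exact 95% Poisson interval of the 9 reads, which covers counting error only, spans 0.448 to 1.86 RPKM and also holds the value of Glc 2.

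Phlgi1_227588, a truncated LPMO model annotated without a CBM1, had 593, 259 and 322 RPKM in NELP, 843, 664 and 371 RPKM in ELP, and 7.25 and 15.6 RPKM in Glc. It was the only 1 of the 7 models with a higher mean in ELP than in NELP by more than its SE, although the 2 wood media overlapped. Its log2 fold change was 5.04 (SE 0.50) in NELP against Glc, 5.73 (SE 0.50) in ELP against Glc and -0.69 (SE 0.45) in NELP against ELP. In ELP its mean of 626 ± 238 RPKM (SD, n = 3) exceeded that of CDH, at rank 132 of all transcripts. In NELP it had 391 ± 178 RPKM (SD, n = 3), below CDH.

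Phlgi1_125213 separated the wood media most. It had 1207, 1480 and 1202 RPKM in NELP, 345, 255 and 325 RPKM in ELP, and 164 and 72.3 RPKM in Glc, and no pair of media overlapped. The log2 fold change in NELP against ELP was 2.08 (SE 0.31), a 4.22-fold difference, and it stayed between 1.95 and 2.16 under all alternatives. Against Glc it was 3.56 (SE 0.35) in NELP and 1.48 (SE 0.35) in ELP. The ELP value was 0.82 after rescaling by median ratio, 0.89 without Glc 2 and 2.07 without Glc 1. The model spans 634 nt in the RefSeq annotation, the shortest of the 15 LPMO models, so that only part of the gene may have been measured. In NELP it was the 51st most abundant transcript.

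Phlgi1_37310 was the most abundant LPMO model in every library except NELP 2, where Phlgi1_125213 was higher. Its levels were 2146, 1268 and 1704 RPKM in NELP, 1471, 1491 and 1266 RPKM in ELP, and 660 and 2282 RPKM in Glc. Glc 2 held the highest of the 8 values and Glc 1 the lowest, so that the wood libraries all lay between the 2 Glc libraries. The log2 fold change was 0.44 (SE 0.48) in NELP against Glc, 0.20 (SE 0.48) in ELP against Glc and 0.25 (SE 0.43) in NELP against ELP. Without Glc 1 the first value was -0.45 and the second -0.70, without Glc 2 they were 1.34 and 1.09, and after rescaling they were -0.16 and -0.47. Whether it differed between wood and glucose could not be read from these 2 Glc libraries.

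Phlgi1_112944 was low in ELP alone. It had 55.2, 53.2 and 56.5 RPKM in NELP, 14.0, 23.3 and 17.2 RPKM in ELP, and 75.5 and 43.2 RPKM in Glc. The ELP libraries lay below every other library, and the NELP libraries lay between the Glc libraries. The log2 fold change was -0.06 (SE 0.30) in NELP against Glc, -1.66 (SE 0.30) in ELP against Glc and 1.60 (SE 0.27) in NELP against ELP, a 3.04-fold difference between the wood media. The ELP value against Glc was -2.31 after rescaling and -1.26 without Glc 1.

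Of the 7 models, 18264's values, like 227588's, 227560's, 125213's and 99876's, were higher in every NELP and every ELP library than in both Glc libraries. Such separation was seen for 49.7% of all genes tested in NELP and 51.4% in ELP, and its reverse for 7.84% and 8.93%. The reverse was seen for Phlgi1_112944 in ELP. Glc 2 was above Glc 1 for 5 of the 7, as for 61.9% of all genes.

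The LPMO family of this genome holds 15 models named GH61, and all 15 passed the minimum of 1 RPKM on average and were tested in the fit over all genes. In NELP against Glc, 6 of the 15 were higher and 0 lower at an adjusted p under 0.05 (limma, Benjamini-Hochberg over 10999 genes). Of all genes tested, 29.5% were higher and 3.67% lower. No model was lower at an unadjusted p under 0.05 either (limma), beside 633 of the 10999 genes tested. In ELP against Glc, 6 models were higher and 2 lower, beside 37.3% higher and 5.14% lower over all genes. As 6 of the 15 were picked with these values known, the counts over the other 9 models are given too. Of these 9, NELP against Glc gave 2 higher and 0 lower (0 lower also at an unadjusted p under 0.05, limma), and ELP against Glc gave 2 higher and 1 lower. The median log2 fold change of the 9 was 0.75 in NELP and 0.59 in ELP, near that of all genes, 0.54 and 0.60. After rescaling by median ratio, 5 models of the family were higher and 0 lower in NELP, beside 6.61% and 6.96% of all genes, while 4 were higher and 3 lower in ELP, beside 10.8% and 11.4%. In fits of the 2 compared media alone, NELP gave 6 higher models and 0 lower, beside 7.79% and 1.12% of all genes, and ELP gave 4 higher and 1 lower, beside 17.4% and 2.25%. Most of the higher models in these fits were among the 6 picked with their values known. Outside the 6, only Phlgi1_79150 was higher after rescaling, in NELP and in ELP, and Phlgi1_64774 and Phlgi1_118444 were lower in ELP. In fits of the compared media alone, those higher outside the 6 were Phlgi1_79150 and Phlgi1_112087 in NELP and Phlgi1_79150 in ELP.

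Phlgi1_79150, annotated as an LPMO with a truncated CBM1, rose on both woods. It had 185, 70.3 and 114 RPKM in NELP, 91.4, 84.4 and 17.2 RPKM in ELP, and 1.50 and 2.52 RPKM in Glc. The log2 fold change was 5.54 (SE 0.73, adjusted p = 0.0044) in NELP against Glc and 4.39 (SE 0.73, adjusted p = 0.0049) in ELP against Glc, and the adjusted p stayed under 0.05 in both under every alternative.

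Phlgi1_35240, the LPMO model outside the 6 with the highest mean over all libraries, had 134, 106 and 128 RPKM in NELP, 102, 94.9 and 115 RPKM in ELP, and 16.4 and 79.7 RPKM in Glc. It rose in NELP against Glc (log2 fold change 1.74, SE 0.56, adjusted p = 0.046), a call kept in 4 of 15 alternatives and lost without any single library except Glc 2 (adjusted p up to 0.16). In ELP against Glc it missed the threshold (1.50, SE 0.56, adjusted p = 0.060). Phlgi1_20470 rose in ELP against Glc, by a log2 fold change of 1.57 (SE 0.52, adjusted p = 0.043). Its levels were 39.3, 33.0 and 27.6 RPKM in ELP and 5.13 and 22.0 RPKM in Glc, and this call too was kept in 4 of 15 alternatives and lost without any single library except Glc 2 (adjusted p up to 0.18).

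Phlgi1_64774, annotated as a truncated LPMO, was the family model outside the 6 that fell in ELP against Glc (log2 fold change -0.72, SE 0.22, adjusted p = 0.031). It had 45.6, 47.2 and 45.0 RPKM in NELP, 18.5, 22.0 and 23.9 RPKM in ELP, and 30.5 and 41.5 RPKM in Glc. All NELP libraries were above all other libraries and all ELP libraries below them, although the call was kept in 8 of 15 alternatives (adjusted p up to 0.11) and lost, among others, without any 1 NELP library, without ELP 1 or ELP 2 and without Glc 2.

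**Figure D2:**
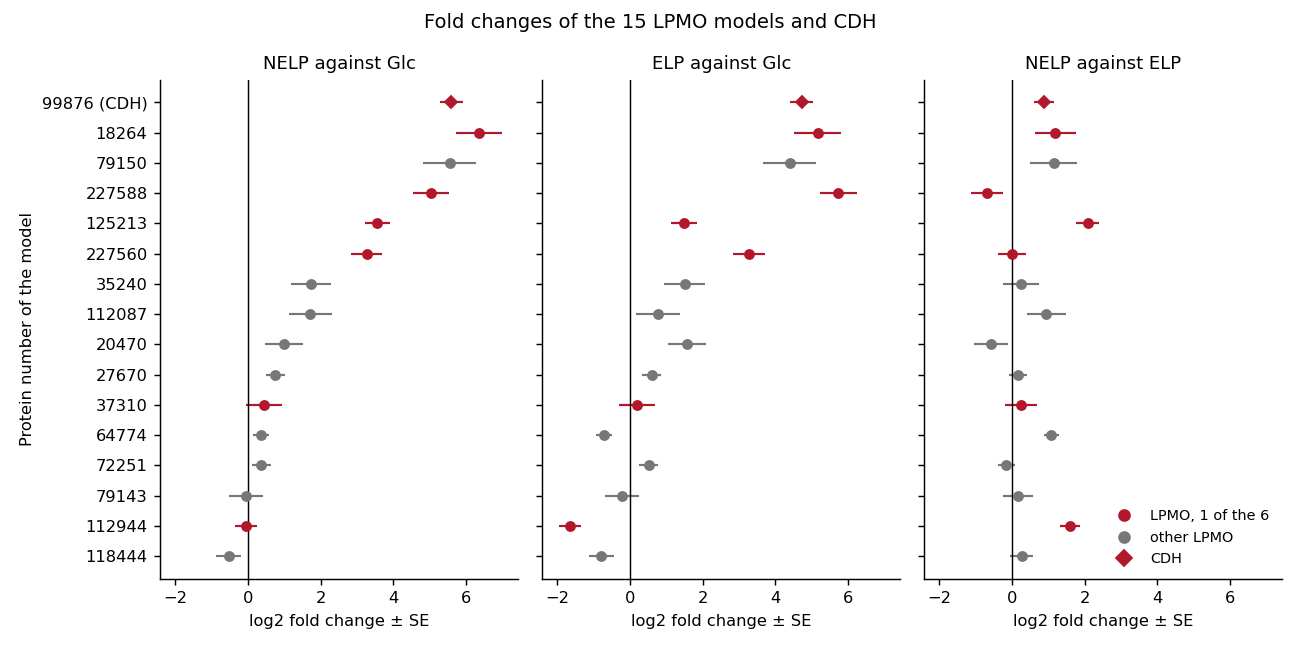
Log2 fold changes with their SE for CDH and the 15 LPMO models. The panels compare NELP with Glc, ELP with Glc and NELP with ELP. Red marks the 7 models described above and grey the other 9 LPMO models, with CDH on top and the LPMO models ordered by the first comparison. The first comparison runs from -0.52 for Phlgi1_118444 to 6.35 for Phlgi1_18264, and the third from -0.69 for Phlgi1_227588 to 2.08 for Phlgi1_125213.

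Between the wood media, 0 of the 15 LPMO models passed in either direction in the fit over all 8 libraries, in which 0.00909% of all genes were higher and 0% lower. At an unadjusted p under 0.05 (limma), 3 models were higher in NELP and 0 lower, beside 795 higher and 1003 lower of the 10999 genes tested. Of the 9 models outside the 6, 1 was higher and 0 lower at that threshold. After rescaling 0 models passed, and 0.0273% of all genes were higher. In a fit of the 6 wood libraries alone, which leaves out the larger spread of Glc, 3 models were higher in NELP and 0 lower, beside 6.12% higher and 4.28% lower over all genes. Among the models outside the 6, the one that passed there was Phlgi1_64774, at a log2 fold change of 1.09 (SE 0.20 and adjusted p = 0.086 in the fit over all libraries). The models with every NELP library above every ELP library were Phlgi1_125213, Phlgi1_112944 and Phlgi1_64774, and Phlgi1_20470 was the model with every NELP library below (26.9, 22.4 and 17.5 RPKM in NELP). Such separation was seen for 16.7% of all genes tested in the first direction and 22.1% in the second.

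Summed over the 15 models, LPMO transcripts came to 4210 ± 764 RPKM in NELP (SD, n = 3), 2787 ± 463 RPKM in ELP (SD, n = 3), and 979 and 2584 RPKM in Glc 1 and Glc 2. Of the summed RPKM of all genes, this was 0.455 to 0.619% in NELP, 0.307 to 0.375% in ELP, against 0.110 and 0.299% in Glc. Glc 2 thus lay within the range of ELP for the sum, while without Phlgi1_37310 the other 14 models summed to 2503 ± 330 RPKM in NELP (SD, n = 3), 1378 ± 348 RPKM in ELP (SD, n = 3), and 319 and 302 RPKM in Glc.

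The make-up of the sum differed between the media. Model Phlgi1_37310 took 42.8, 36.3 and 41.3% of it in NELP, 46.4, 51.0 and 55.7% in ELP, against 67.4 and 88.3% in Glc. Phlgi1_125213 came next in NELP 1 and NELP 3 and first in NELP 2, with 24.1, 42.4 and 29.2% in NELP, against 10.9, 8.71 and 14.3% in ELP. In ELP the next model was Phlgi1_227588, with 26.6, 22.7 and 16.3%, against 11.8, 7.41 and 7.80% in NELP and less than 1% in Glc (0.741 and 0.603%). Model Phlgi1_18264 took 11.2, 4.24 and 11.9% in NELP, 6.19, 7.09 and 3.65% in ELP, against 0.289 and 0.187% in Glc. With the 5 models described as truncated left out, Phlgi1_37310 took 73.1 ± 3.96% in NELP (SD, n = 3), 79.9 ± 2.21% in ELP (SD, n = 3), and 85.1 and 93.2% in Glc.

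**Figure D3:**
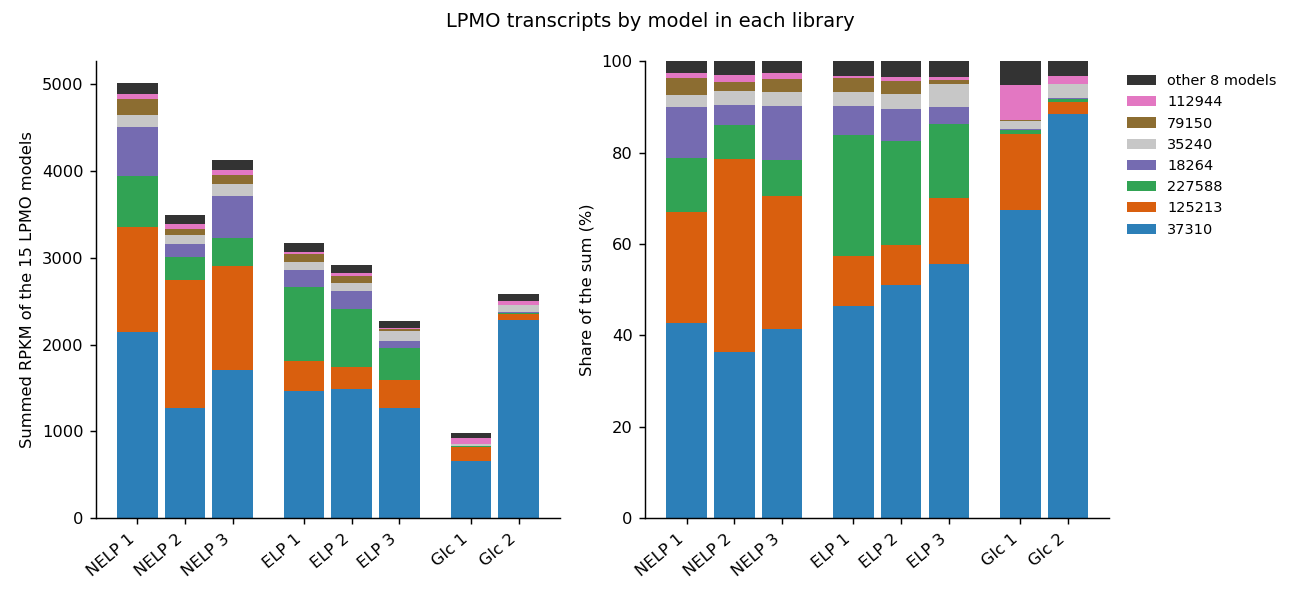
LPMO transcripts by model in each library, as summed RPKM (left) and as the share of the sum in percent (right). The blue part, Phlgi1_37310, takes 36.3 to 42.8% in NELP, 46.4 to 55.7% in ELP, against 67.4 and 88.3% in Glc. The orange part, Phlgi1_125213, is the second largest in NELP 1 and NELP 3 and the largest in NELP 2, and the green part, Phlgi1_227588, the second largest in ELP.

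Set against the transcript of their electron donor, the ratio of the LPMO sum to CDH was 7.77, 5.65 and 7.55 in NELP, 6.99, 8.64 and 9.93 in ELP, against 99.6 and 178 in Glc. The wood media overlapped in this ratio, and both stood far below Glc, where CDH was low and Phlgi1_37310 was not. Without Phlgi1_37310 the ratio was 4.16 ± 0.48 in NELP (SD, n = 3), 4.13 ± 0.34 for ELP (SD, n = 3), and 32.5 and 20.8 for Glc. In NELP, 2 of the 15 LPMO models (Phlgi1_37310 and Phlgi1_125213) were above CDH in each library. The ratio of Phlgi1_18264 to CDH was 0.870, 0.239 and 0.894 in NELP, 0.433, 0.613 and 0.362 in ELP, against 0.288 and 0.333 in Glc. The ratio of Phlgi1_227588 to CDH was 0.919, 0.418 and 0.589 in NELP, 1.86, 1.96 and 1.62 in ELP, against 0.738 and 1.07 in Glc. It was thus above 1 in all 3 ELP libraries and below 1 in all 3 NELP libraries.

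Libraries of the same wood medium differed by more for some LPMO models than for others. For Phlgi1_18264, NELP 1 and NELP 3 were 3.79-fold and 3.30-fold above NELP 2, and ELP 1 and ELP 2 were 2.36-fold and 2.50-fold above ELP 3. For Phlgi1_79150, ELP 1 and ELP 2 were 5.31-fold and 4.90-fold above ELP 3. For CDH the NELP libraries stayed within 0.884-fold to 1.04-fold of NELP 2, while ELP 1 was 1.98-fold above ELP 3. In 6 of the 15 LPMO models (4 of the 6 described above) NELP 2 was the lowest NELP library and ELP 3 the lowest ELP library, beside 8.23% of all genes tested. ELP 3 alone was the lowest ELP library for 8 of the 15 and for 45.3% of all genes, and NELP 2 alone the lowest NELP library for 9 of the 15 and for 17.4%. Among the 13 cellulases listed below, NELP 2 and ELP 3 were both the lowest for 10. The median of all genes deviated by no more than 0.06 on the log2 scale from its medium mean in any wood library. Models Phlgi1_125213, Phlgi1_64774 and Phlgi1_112944 had other orders of their libraries, with NELP 2 the highest NELP library for Phlgi1_125213.

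**Figure D4:**
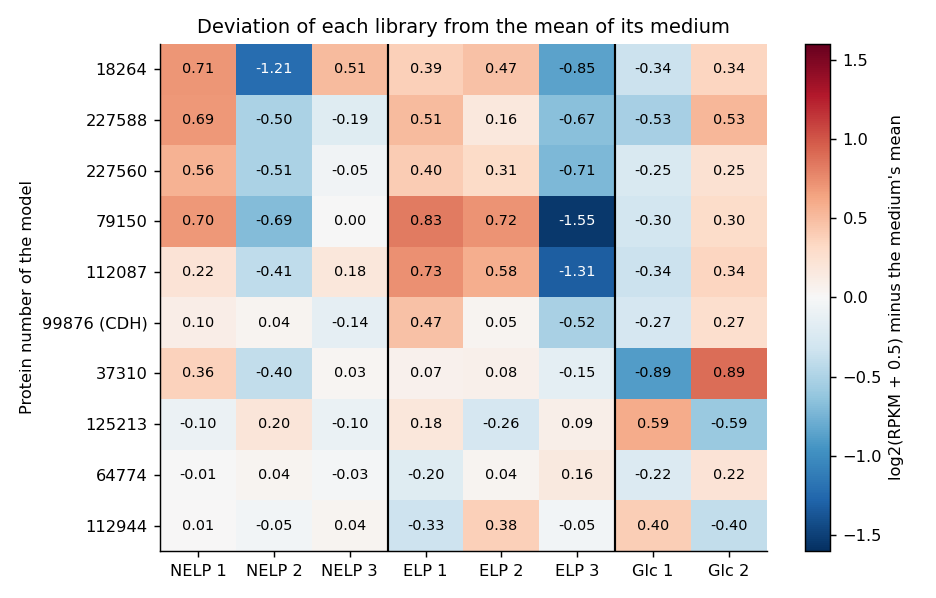
Deviation of each library from the mean of its medium in log2(RPKM + 0.5), for CDH and 9 LPMO models. Blue is below and red above the mean. For Phlgi1_18264, Phlgi1_227588, Phlgi1_227560, Phlgi1_79150 and Phlgi1_112087, NELP 2 and ELP 3 lie below their means (down to -1.21 for Phlgi1_18264 in NELP 2 and -1.55 for Phlgi1_79150 in ELP 3), and for Phlgi1_37310 the widest gap is between Glc 1 and Glc 2.

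Profiles over the 8 libraries were compared by the root-mean-square difference of centred log2 values, where a small value means a like profile whatever the level. This is a description over 8 libraries that share 3 media. The profile of CDH differed by 0.58 from that of Phlgi1_79150, 0.65 from Phlgi1_18264, 0.76 from Phlgi1_227588 and 0.96 from Phlgi1_227560, but by 1.37 from Phlgi1_125213, 2.19 from Phlgi1_37310 and 2.72 from Phlgi1_112944. Among the 8228 genes that averaged 10 RPKM or more these LPMO models came 11th, 18th, 26th, 60th, 233rd, 5152nd and 7640th in likeness to CDH. With the 6 wood libraries alone the order was another one, and Phlgi1_79150, Phlgi1_18264 and Phlgi1_227588 came 5776th, 6101st and 7640th. There Phlgi1_37310 came 1458th, Phlgi1_227560 3267th, Phlgi1_112944 3329th and Phlgi1_125213 6039th.

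For each of the 7 models the 3 nearest genes with a function name were listed. For CDH they were the GH7 exoglucanase Phlgi1_13298, which releases cellobiose from chain ends (difference 0.22), the GH3 model Phlgi1_127564, of a family that includes β-glucosidases (0.26), and the M35 metallopeptidase Phlgi1_101670 (0.29). For Phlgi1_18264 they were the GH6 cellulase Phlgi1_17701 (0.39), the GH12 model Phlgi1_34479 (0.41) and again Phlgi1_101670 (0.49). For Phlgi1_227588 they were the GH5 model Phlgi1_97727 (0.40), the GH74 model Phlgi1_98770, of a family of xyloglucanases (0.43), and the GH10 xylanase Phlgi1_85016 (0.44). For Phlgi1_227560 they were the GH27 model Phlgi1_72848 (0.27), the CE16 esterase with a cellulose-binding domain Phlgi1_103464 (0.28) and the GH5 endoglucanase Phlgi1_84111 (0.31).

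For Phlgi1_125213 no gene with a name was nearer than 0.59, the value of the peptidase Phlgi1_105051, followed by the GH92 model Phlgi1_105233 (0.67) and the oligopeptide transporter Phlgi1_34454 (0.69). For Phlgi1_112944 they were a glutathione S-transferase (Phlgi1_113065, 0.18), a peroxiredoxin (Phlgi1_95619, 0.24) and a fructose-2,6-bisphosphatase (Phlgi1_95775, 0.29). For Phlgi1_37310 they were riboflavin synthase (Phlgi1_28059, 0.23), a model named RNA polymerase II (Phlgi1_65405, 0.26) and histidinol-phosphatase (Phlgi1_20624, 0.28). All 3 nearest genes of each model stayed the same after rescaling, and with the 6 wood libraries alone at most 1 of 3 did. For CDH, Phlgi1_227588, Phlgi1_37310 and Phlgi1_112944, 0 of 3 did. The nearest named genes of CDH there were a heat shock protein (Phlgi1_18607), a cytochrome c oxidase model (Phlgi1_19584) and a model named AAD (Phlgi1_89048). The likeness to cellulases and xylanases above thus rests on the difference between wood and glucose.

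**Figure D5:**
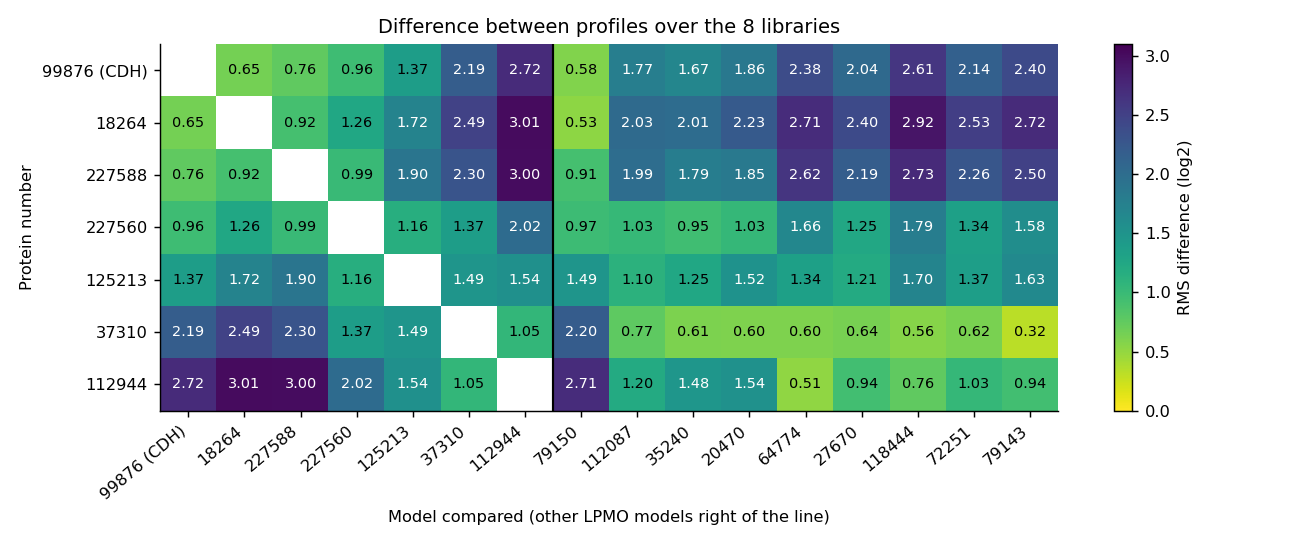
Root-mean-square difference in log2 units between the centred profiles of each of the 7 models (rows) and the other LPMO models or CDH (columns). Yellow marks alike and dark purple unlike profiles. CDH, Phlgi1_18264, Phlgi1_227588 and Phlgi1_79150 lie within 0.92 of each other, and Phlgi1_112944 differs by 3.01 from Phlgi1_18264 but by 0.51 from Phlgi1_64774.

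Some LPMO genes lie close together. In the RefSeq annotation of the assembly, Phlgi1_227588 and Phlgi1_227560 are adjacent genes, and Phlgi1_37310 follows with 8 genes between. Their mean levels in ELP were 626, 17.4 and 1409 RPKM. Models Phlgi1_64774 and Phlgi1_125213 lie with 2 genes between them, and both were higher in every NELP library than in every ELP library.

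Among genes that act beside LPMOs, 13 cellulases were counted by function name (GH6, GH7, GH12, GH45 and GH5 endoglucanases). In NELP against Glc 7 of the 13 were higher and 0 lower, and in ELP against Glc 8 were higher and 0 lower, with 0 lower also at an unadjusted p under 0.05 in both (limma). Of all genes, 29.5% and 37.3% were higher. The median log2 fold changes of the 13 were 3.91 and 3.44, beside 0.54 and 0.60 for all genes. Without Glc 2, which leaves 1 Glc library, the NELP count was larger, and the median of all genes in NELP rose to 0.70. The table holds 2 GH7 rows (Phlgi1_69505 and Phlgi1_80168) with the same values in all libraries, which count as 2 of the 13. The largest changes were those of the GH7 cellobiohydrolase Phlgi1_34136 (log2 fold change 6.59, SE 0.34, adjusted p = 1.5e-04 in NELP, and 6.17, SE 0.34, adjusted p = 1.6e-04 in ELP). The next were those of the GH6 model Phlgi1_17701 in NELP (6.24, SE 0.42, adjusted p = 3.0e-04) and the GH5 endoglucanase Phlgi1_86144 in ELP (5.69, SE 0.47, adjusted p = 7.9e-04).

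A CBM1 or fungal cellulose-binding region was named for 24 models, of which 4 were LPMOs and 7 were cellulases of the list above. Of the 20 outside the LPMO family, NELP against Glc gave 15 higher and 1 lower, and ELP against Glc gave 16 higher and 1 lower, with median log2 fold changes of 3.63 and 3.45. Of all genes, 29.5% and 37.3% were higher and 3.67% and 5.14% lower. The GH10 xylanase Phlgi1_85016 rose by 5.79 on the log2 scale in NELP (SE 0.54, adjusted p = 0.0014) and 5.77 in ELP (SE 0.54, adjusted p = 0.0012). The model that fell was another GH10, Phlgi1_25162, with 9.08 ± 1.54 RPKM in NELP (SD, n = 3), 8.64 ± 1.96 RPKM in ELP (SD, n = 3), and 109 and 25.1 RPKM in Glc. It lost the call in NELP without NELP 2 and in the fit of NELP and Glc alone. Of the 4 LPMO models with a CBM1, Phlgi1_18264 (log2 fold change 6.35) and Phlgi1_79150 (5.54, CBM1 truncated) lay above that median in NELP. Phlgi1_227560 (3.27) and Phlgi1_27670 (0.75) lay below it. Phlgi1_27670 had 6.68 to 10.1 RPKM in NELP, 6.39 to 8.94 RPKM in ELP, and 5.81 and 4.02 RPKM in Glc.

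Oxidases of the glucose-methanol-choline family that form hydrogen peroxide, the co-substrate of LPMOs, were called in both directions. For Phlgi1_123211, 1 of the 8 models, that role is assumed, as it is named only as a member of that family. Of the 8, NELP against Glc gave 2 higher and 2 lower, and ELP against Glc gave 3 higher and 1 lower. The shares of higher models were near the 29.5% and 37.3% of all genes. Of all genes, 3.67% and 5.14% were lower. In fits of the compared media alone 0 were lower in either comparison, beside 1.12% and 2.25% of all genes. In ELP 1 was higher there, beside 17.4% of all genes. Without Glc 2, which leaves 1 Glc library, more were higher in either comparison. The median log2 fold change of all genes rose there as well, to 0.70 in NELP and 0.76 in ELP. Among the models that passed, the oxidoreductase Phlgi1_128108 rose most, at 2.50 on the log2 scale (SE 0.36, adjusted p = 0.0054) in NELP and 2.65 (SE 0.36, adjusted p = 0.0031) in ELP, and the methanol oxidase Phlgi1_108516 rose by 1.98 (SE 0.35, adjusted p = 0.0083) in NELP and 1.58 (SE 0.35, adjusted p = 0.011) in ELP, where it was lost after rescaling and in the fit of ELP and Glc alone. The models Phlgi1_121514 and Phlgi1_123211 fell in NELP, with log2 fold changes of -0.94 (adjusted p = 0.023) and -0.93 (adjusted p = 0.018), calls that were lost without NELP 3, in the fit of NELP and Glc alone and, for Phlgi1_121514, also without NELP 2 and with the replicate block, and Phlgi1_121514 fell in ELP, at -0.72 (adjusted p = 0.042, a call kept in 6 of 15 alternatives). The methanol oxidase Phlgi1_120749, named here after its values were seen, had 9787 to 10918 RPKM in NELP, 5020 to 9810 RPKM in ELP, and 99.5 and 10342 RPKM in Glc 1 and Glc 2, so that it, like Phlgi1_37310, differed most between the Glc libraries.

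Aldose 1-epimerases interconvert the anomers of cellobiose, of which CDH takes the β form. Of 3 models, Phlgi1_28423 rose in NELP against Glc (log2 fold change 1.32, SE 0.34, adjusted p = 0.024) and in ELP against Glc (1.18, SE 0.34, adjusted p = 0.026), and neither call held after rescaling, with a replicate block or without Glc 1. The NELP call was also lost without NELP 1 or NELP 3 and the ELP call without ELP 1 or ELP 2. Of the 3 models 33.3% were thus higher in each comparison, near the 29.5% and 37.3% of all genes. Model Phlgi1_128902 had 7.90, 4.95 and 5.43 RPKM in NELP, 0.903, 2.03 and 1.65 RPKM in ELP, and 2.05 and 6.88 RPKM in Glc. It passed in no comparison (limma adjusted p = 0.15 in NELP against ELP). The most abundant of the 3, Phlgi1_396343, had 109, 97.0 and 91.6 RPKM in NELP, 181, 139 and 114 RPKM in ELP, and 129 and 82.8 RPKM in Glc. It too passed in no comparison of the fit over all libraries.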

How the data were processed

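The authors mapped reads of poly-A RNA (HiSeq2000) with SeqNGen and made RPKM values with QSeq (DNAStar) before they deposited them; the submitters' processing notes also name CASAVA 1.8.2. How reads with several matches were assigned was not given in the sources used here, and similar models may share reads. The test was limma 3.58.1 (R 4.3.3) on log2(RPKM + 0.5), fitted once to all 8 libraries, for genes that averaged 1 RPKM or more, with Benjamini-Hochberg adjustment. The fit was tested on simulated data with known changes and the same spread in all 3 media. That simulation does not cover the larger spread of Glc, so it cannot tell how far p-values against Glc are affected. An exact two-sided permutation test of 3 against 3 libraries cannot go below p = 0.1. Reads were inferred as the total at which the largest number of genes gave whole reads, 170 to 354 genes per library. The length of a model was taken where a single length gave whole reads in all 8 libraries (within 0.02 beyond rounding). Genes named are the 7 models, other LPMO models that passed or were most abundant, the 3 nearest profiles, and the 2 largest changes each way per list. The models and lists were chosen with earlier results of these data known. Gene order and spans came from RefSeq (Phlgi1 assembly; 11825 of 11892 models matched by number). Alternatives were other pseudocounts (1, 0.1), filters, rescaling by median ratio, fits of the compared media alone, a replicate block, and leaving out each library.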

Additional observations from a re-analysis of the deposited data

How the results depend on the processing

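The number of LPMO models higher in NELP than in Glc ranged from 5 to 10 when single libraries were left out, and the 10 came without Glc 2. For ELP against Glc it ranged from 5 to 8, and 1 to 3 models were lower. Between NELP and ELP 0 models were higher with all libraries and 3 without Glc 1 or without Glc 2. Without a Glc library that medium has 1 sample, which is assumed to vary like the wood libraries. In fits of the compared media alone, 1 model was lower in ELP than in Glc and 3 were higher in NELP than in ELP. All other counts for the family in fits with both Glc libraries stayed within 1.5 times. Over all genes, 3247 were higher and 404 lower in NELP than in Glc, against 727 and 766 after rescaling and 857 and 123 in a fit of these media alone. For ELP against Glc these numbers were 4103 and 565, then 1183 and 1252, and 1913 and 248. Deviations of libraries with equal replicate numbers had correlations of 0.40, -0.15 and 0.50 between NELP and ELP. Whether these libraries were paired cannot be told from this, as libraries with unequal numbers were not compared. With a replicate block 5 LPMO models were higher in NELP and 5 in ELP than in Glc. In that fit 2 were lower in ELP, and 0 differed between NELP and ELP. The median log2 fold change of all genes with the block was 0.57 in NELP and 0.62 in ELP against Glc. The small fold changes of Phlgi1_37310, Phlgi1_112944 (NELP against Glc) and Phlgi1_227560 (NELP against ELP) changed sign under some alternatives. With Glc at 2 libraries and few reads of weak transcripts in Glc 1, levels of low models there are the least certain.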

Other observations

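Some LPMO models were low in every medium. Phlgi1_118444 had 3.56, 1.64 and 1.85 RPKM in NELP, 1.53, 1.62 and 2.23 RPKM in ELP, and 2.64 and 4.44 RPKM in Glc, from 7 to 48 reads per library. Phlgi1_72251 had 3.37 to 5.06 RPKM in NELP, 4.05 to 6.19 RPKM in ELP, and 3.27 and 2.97 RPKM in Glc. Phlgi1_79143, annotated as truncated, had at most 2.16 RPKM in any library. None of the 3 passed in the fit over all libraries, and Phlgi1_118444 was lower in ELP than in Glc after rescaling (limma adjusted p = 0.026) and without Glc 1 (adjusted p = 0.043). The adjacent genes Phlgi1_112087, Phlgi1_20470 and Phlgi1_79143 differed in their levels. Phlgi1_112087 had 16.2, 10.3 and 15.7 RPKM in NELP, 11.8, 10.6 and 2.48 RPKM in ELP, and 2.93 and 5.01 RPKM in Glc. For its direct neighbour Phlgi1_20470 every NELP library was below every ELP library.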
